A study of Mus musculus with 20 samples.

Results

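The loci examined across the deposited region lists were those of Pgr, Prlr, Foxa1 and Gata3, which are active in the hormone-sensing luminal cells of the mouse mammary gland. The loci were chosen with earlier results of these data known. Within them, members were taken by position alone. They are all entries of 14 lists that overlap, by at least 1 bp, 1 of 4 windows of the mm9 genome: chr9:8849000-9019000 for Pgr, chr15:10057000-10329000 for Prlr, chr12:58590000-58700000 for Foxa1 and chr2:9700000-9900000 for Gata3. The windows span 752 kb in all and held 241 of the 311456 nuclear entries, with 49 at Pgr, 40 at Prlr, 52 at Foxa1 and 100 at Gata3.

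The study mapped accessible chromatin by ATAC-seq, in which a transposase cuts and tags DNA that nucleosomes leave exposed, in nuclei of sorted C57BL6J mammary cells. Normal wild-type cells gave 2 samples of each of 4 populations: adult mature luminal cells, adult luminal progenitors, adult basal cells, and fMaSC (fetal mammary stem cells) of embryonic day 18. Transplants of the mouse mammary tumour line PY230 in syngeneic mice gave 3 luminal SOX10-high samples and 3 luminal SOX10-low samples, which the lists of regions open and closed in SOX10-high cells compare. Other tumour and culture samples of the series were not analysed here. The normal mice carry no transgene, and PY230 is a single tumour line. Each list combines the samples of its group and holds no reads, so sample depth is unknown, replicates cannot be compared, and no test between cell types or tumour states was made. In pooled nuclei, fewer cells with an open site and a weaker opening in each cell cannot be told apart.

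Mature luminal cells of the mouse gland carry receptors for ovarian hormones and pass the signal on to neighbouring cells by paracrine factors. Pgr encodes the nuclear progesterone receptor, a ligand-activated transcription factor. Prlr encodes the prolactin receptor, a cytokine receptor that signals through JAK2 and STAT5 and drives alveolar development. Foxa1 is a forkhead pioneer factor that can bind nucleosomal DNA and prepares sites for the estrogen receptor, and Gata3 is a zinc-finger factor needed for luminal fate. Luminal progenitors largely lack the progesterone receptor but express Gata3.

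The promoters of the 4 genes are shown because the peaks at 1 start of each gene were shared by all 4 normal types. Away from these starts, some sites at Foxa1 and Gata3 were shared by all 4 types as well, and the other sites differed. Sequences are RefSeq's, of build GRCm38.p6, and each runs 5′ to 3′ along the gene from 250 bases before to 50 bases after an annotated start. All 4 genes had an entry, with 1 start each for Pgr, Foxa1 and Gata3 and 3 for Prlr, of which the most upstream is printed. These coordinates cannot be set against the mm9 positions used elsewhere. Capitals mark matches, on either strand, to the GATA words AGATAA or AGATAG or TGATAA or TGATAG, the forkhead word TGTTTAC, the SOX words ACAAAG or ACAATG, the full estrogen response element, or its arm GGTCA alone.
Pgr (GRCm38.p6 chr9:8899583-8899882, plus strand): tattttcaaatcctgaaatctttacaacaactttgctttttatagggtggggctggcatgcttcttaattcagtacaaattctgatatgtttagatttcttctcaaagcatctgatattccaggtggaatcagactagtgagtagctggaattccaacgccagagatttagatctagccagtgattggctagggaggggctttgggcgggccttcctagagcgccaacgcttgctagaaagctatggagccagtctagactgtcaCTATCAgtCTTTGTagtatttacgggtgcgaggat
Prlr (GRCm38.p6 chr15:10176988-10177287, plus strand): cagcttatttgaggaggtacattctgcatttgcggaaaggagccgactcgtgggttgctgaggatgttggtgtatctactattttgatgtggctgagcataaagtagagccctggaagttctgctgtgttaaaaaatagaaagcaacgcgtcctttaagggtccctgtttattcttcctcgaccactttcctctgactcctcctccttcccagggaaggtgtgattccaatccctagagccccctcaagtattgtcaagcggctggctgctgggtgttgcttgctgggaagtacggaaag
Foxa1 (GRCm38.p6 chr12:57546062-57546361, minus strand): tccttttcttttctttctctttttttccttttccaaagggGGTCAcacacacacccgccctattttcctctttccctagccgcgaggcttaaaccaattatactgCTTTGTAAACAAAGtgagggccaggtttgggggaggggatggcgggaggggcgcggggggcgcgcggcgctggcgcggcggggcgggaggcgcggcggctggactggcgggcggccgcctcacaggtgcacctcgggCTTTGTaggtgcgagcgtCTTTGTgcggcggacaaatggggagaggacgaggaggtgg
Gata3 (GRCm38.p6 chr2:9878551-9878850, minus strand): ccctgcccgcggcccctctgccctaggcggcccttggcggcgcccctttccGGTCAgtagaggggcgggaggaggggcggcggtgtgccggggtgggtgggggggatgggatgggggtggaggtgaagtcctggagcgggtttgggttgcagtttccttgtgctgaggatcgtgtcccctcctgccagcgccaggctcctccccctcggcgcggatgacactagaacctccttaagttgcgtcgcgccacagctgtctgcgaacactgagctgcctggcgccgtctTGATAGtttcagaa

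The Foxa1 promoter held 1 forkhead word, a match also present in 3.65% of the 32851 promoters in the table. That word overlaps SOX words on both sides, within the run CTTTGTAAACAAAG, and the promoter held 4 SOX words in all. SOX words occurred in 28.6% of all promoters. Pgr had 1 SOX word and 1 GATA word just after its start, and GATA words occurred in 29.8% of promoters. Gata3 had 1 GATA word and 1 GGTCA arm, Foxa1 had 1 arm as well, and the arm occurred in 40.5% of promoters. The most upstream Prlr promoter held none of the words, and the next Prlr promoter held 1 forkhead and 1 GATA word. The full estrogen response element was in none of these promoters and in 0.0700% of all. The Foxa1 and Gata3 promoters were rich in G and C, at 62.3% and 67.3%, with 26 and 22 CG pairs, against medians of 52.7% and 7 over all promoters. The Pgr promoter had 43.7% G and C and 6 CG pairs, and that of Prlr 49.3% and 8. A match is a description of letters and not of a bound site.

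All 4 normal populations were accessible at the start that the locus rule gives for each gene. Prlr has 3 annotated starts, and its others were not examined for peaks. The mm9 positions of the genes are those of the locus rule, near 8.9 to 8.969 Mb for Pgr, 10.107 to 10.279 Mb for Prlr, 58.642 to 58.647 Mb for Foxa1 and 9.78 to 9.8 Mb for Gata3. They are rounded, to 10 kb for Gata3, and no mm9 annotation was used. Strand was taken from RefSeq. At Pgr the mature luminal peak chr9:8899415-8902162 covered the start with a fold of 18.7. This fold is the authors' enrichment of a peak over the peak caller's background, and it ranks peaks within a list only. The luminal progenitor, basal and fMaSC peaks at the same start had folds of 19.3, 26.5 and 23.0 in their own lists. At Foxa1 the start peak chr12:58645868-58648499 had a fold of 28.9 in mature luminal cells and ranked 1075 of 61584, and the luminal progenitor, basal and fMaSC folds were 23.3, 17.5 and 20.8. At Gata3 the start lay in a mature luminal peak of 5465 bp with a fold of 24.9, a luminal progenitor peak of 8304 bp with 24.3, a basal peak of 6135 bp with 23.9 and an fMaSC peak of 2173 bp with 27.9. The Prlr start stood lower within its lists. Its mature luminal peak, chr15:10107006-10108431, had a fold of 7.72 and ranked 33403 of 61584, and the luminal progenitor, basal and fMaSC folds were 15.6, 9.48 and 12.9.

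Over the whole windows, starts included, the loci were denser in mature luminal and luminal progenitor peaks than the genome, and the excess was uneven between genes. The windows held 75 mature luminal, 62 luminal progenitor, 31 basal and 39 fMaSC peaks. That is 99.7, 82.4, 41.2 and 51.9 peaks per Mb in that order, against 23.9, 23.3, 31.2 and 31.0 per Mb over 19 autosomes and X. The density in the windows was thus 4.17 times that of the genome for mature luminal cells, 3.54 for luminal progenitors, 1.32 for basal cells and 1.67 for fMaSC. With the 30015 strongest peaks of each list these ratios were 2.51, 2.05, 0.684 and 1.48, and with peaks at or above each list's median fold they were 2.43, 2.14, 1.41 and 1.24. The luminal ratios were thus lower without weak peaks under both rules, while the basal ratio lay below 1 under the first rule and above it under the second. Peaks covered 8.96% of the windows in mature luminal cells, 7.11% in luminal progenitors, 4.60% in basal cells and 3.52% in fMaSC, against 1.70%, 1.84%, 2.73% and 1.87% of the genome. Mature luminal peaks were the most numerous at Pgr and Foxa1. At Prlr and Gata3 luminal progenitor peaks were, so at these 2 loci mature luminal cells did not have the highest count. The depth of the pooled lists is unknown, which limits this comparison.

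**Figure D1:**
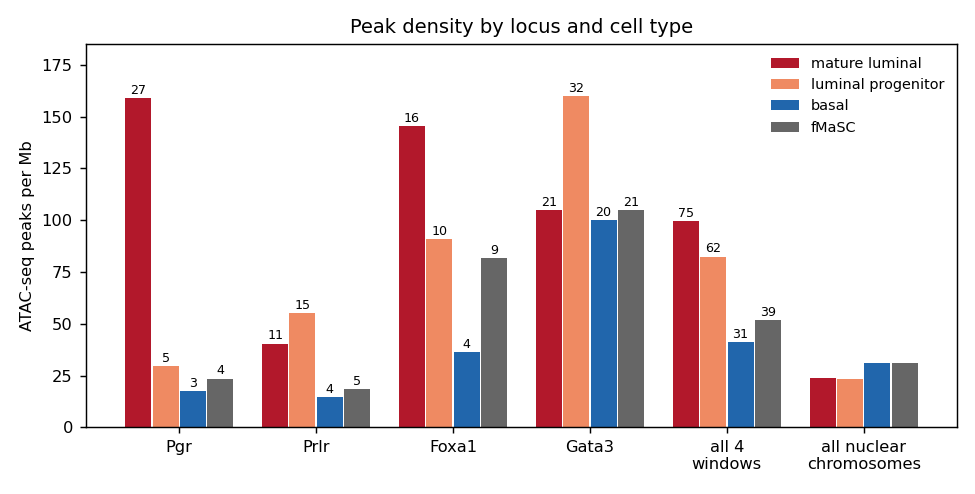
Peaks per Mb (vertical axis) in each window, in all 4 windows together and over all nuclear chromosomes, with 1 bar per pooled cell type and the number of peaks above it. Mature luminal bars are highest at Pgr (27 peaks) and Foxa1 (16), and luminal progenitor bars at Prlr (15) and Gata3 (32).

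Pgr had the most mature luminal peaks of the 4 loci and the highest mature luminal density, although among the 30015 strongest peaks Foxa1 had 7 and Pgr 6. In all, Pgr had 27 mature luminal peaks, against 5 luminal progenitor, 3 basal and 4 fMaSC peaks. Mature luminal density was 6.64 times that of the genome, and of 15135 consecutive windows of 170 kb along the genome 31 held at least as many mature luminal peaks, with a median of 2. Luminal progenitor density was 1.26 times, basal 0.566 times and fMaSC 0.758 times that of the genome. Of the 30 regions that remained after peaks of all types were merged, 22 held a mature luminal peak alone. The 27 mature luminal peaks were spread over the locus, with 10 upstream of the gene, 13 inside its span and 4 downstream.

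The strongest mature luminal peak at Pgr did not lie at its start. It was chr9:8971253-8973671, just beyond the 3′ end, 72.5 kb from the start, with a fold of 29.9 and rank 844 of 61584. Its neighbour chr9:8969925-8970979 had a fold of 23.7. Luminal progenitors had peaks with folds of 6.86 and 4.78 at these sites, and basal cells and fMaSC had none. Most other mature luminal peaks of the locus were weak. The median fold of all 27 was 5.23, against 8.47 over the whole list, and 6 of the 27, the strong pair among them, were at or above that list median. The next sites seen in mature luminal cells alone, by fold, were chr9:8997819-8998323 at 11.0, chr9:8945329-8946046 at 9.71 and chr9:8906328-8907006 at 7.72.

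Weak Pgr peaks lay close together, within wide regions of the mature luminal UAR list. UAR and URR are abbreviations that the labels do not expand. From their overlaps, a UAR was read as a region more accessible in the named type than in the other 3. A URR was read as one less accessible. This reading was not tested, and a UAR can hold peaks of other types. Of the 3282 mature luminal UARs, 1772 held none. Pgr held 4 of the 3282 mature luminal UARs, and 14 of its 27 mature luminal peaks (51.9%) lay in them, against 6.12% of all mature luminal peaks. The UAR chr9:8875401-8885500, upstream of the gene, was 10.1 kb wide, ranked 128 by score and held 8 mature luminal peaks with folds between 3.99 and 6.23. Counting itself, 4 of all mature luminal UARs held at least as many peaks and 8 were at least as wide. The UAR chr9:8841901-8852000, which extends past the window, was equally wide and held 6 peaks. Inside the gene, chr9:8933701-8939500 was 5.80 kb wide and held 3. None of these 3 UARs held a peak of another cell type. The fourth, chr9:8969801-8974200, spans the strong pair beyond the 3′ end, ranked 46 by score and held 2 luminal progenitor peaks as well. The median UAR of the list was 1500 bp wide with 1 peak.

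**Figure D2:**
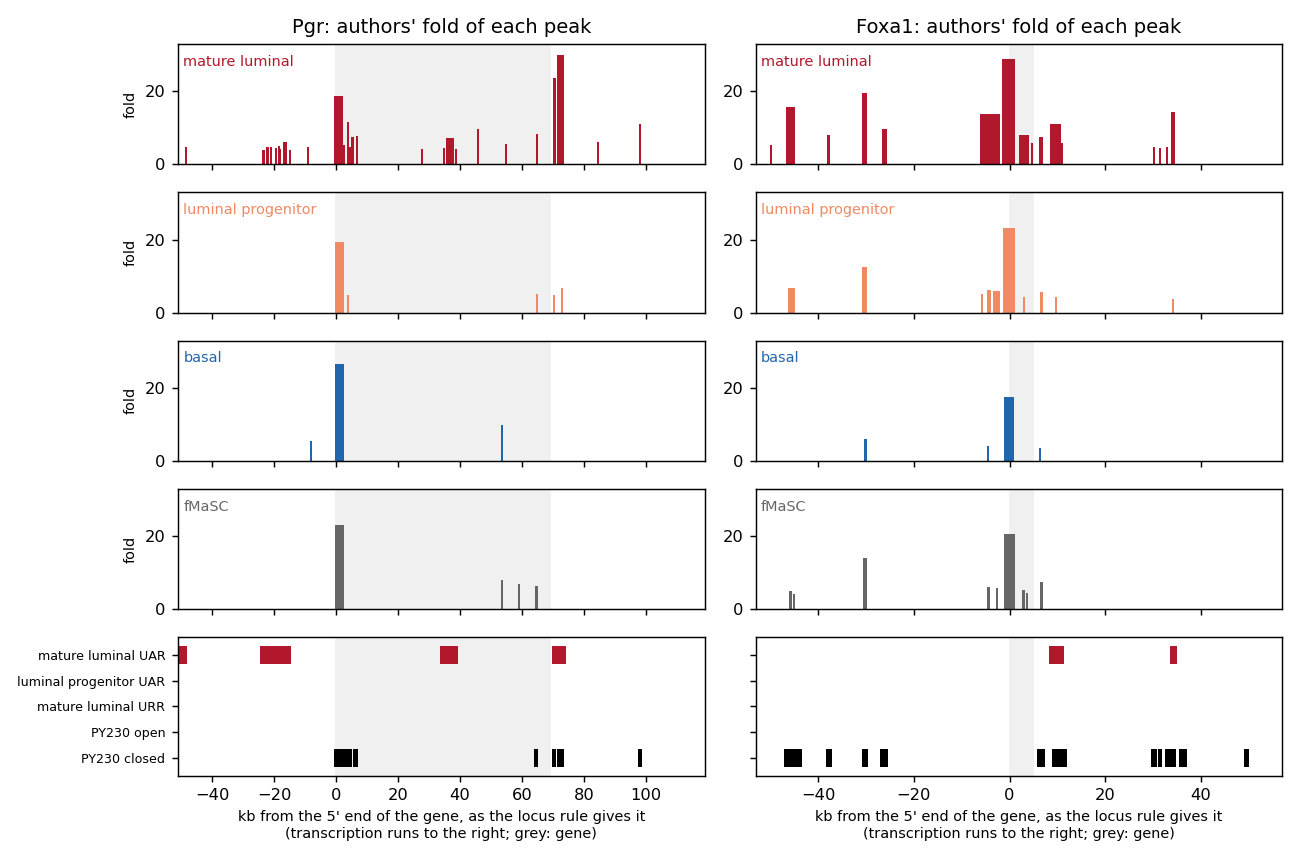
Maps of Pgr (left) and Foxa1 (right): the horizontal axis is the distance in kb from the gene's 5′ end with transcription to the right, the upper rows give the authors' fold of each peak per cell type, and the bottom row the regions of the other lists. Tall bars at 0 appear in every row, while the pair beyond the Pgr gene, with mature luminal folds of 23.7 and 29.9, has only low bars in luminal progenitors and none below.

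Prlr, the prolactin receptor gene, had more peaks in each luminal type than in basal cells or fMaSC. It had 11 mature luminal and 15 luminal progenitor peaks, and 4 basal and 5 fMaSC peaks. Mature luminal density was 1.69 times that of the genome and luminal progenitor density 2.37 times, while basal (0.472) and fMaSC (0.592) density lay below it. Such counts were common, since 23.2% of 9458 consecutive windows of 272 kb held at least as many mature luminal peaks and 13.7% at least as many luminal progenitor peaks. Peaks lay mostly in the gene, with 10 of the 11 mature luminal and 13 of the 15 luminal progenitor peaks inside its span. Of 20 merged regions, 5 held peaks of both luminal types only, 5 of luminal progenitors alone and 4 of mature luminal cells alone. The site chr15:10121599-10122922 had a mature luminal fold of 15.2 and a luminal progenitor fold of 15.0, and held no basal or fMaSC peak. RefSeq annotates the long noncoding RNA gene Gm41268 over Prlr, so peaks where they overlap may belong to either gene.

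Each luminal type also had a UAR of its own in Prlr. The mature luminal UAR chr15:10129701-10131400, 23.6 kb into the gene, held the strongest mature luminal peak of the locus, with a fold of 17.7, and a luminal progenitor peak with a fold of 4.57. The luminal progenitor UAR chr15:10177501-10181500, 72.5 kb into the gene, was 4.00 kb wide and held 3 luminal progenitor peaks with folds of 9.35, 11.2 and 7.07. Mature luminal, basal and fMaSC cells had 1 peak each in it, with folds of 8.22, 5.39 and 7.60. Its score ranked 285 of 306, near the bottom of that list. The 4 sites seen in mature luminal cells alone had folds between 4.98 and 9.47, led by chr15:10156090-10156690, with chr15:10265466-10265777 at 6.48 and chr15:10227887-10228198 at 5.73 next.

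Foxa1, the pioneer factor gene, is short, and most of its peaks lay outside the gene. Mature luminal cells had 16 peaks, luminal progenitors 10, basal cells 4 and fMaSC 9. Of 23397 consecutive windows of 110 kb, 198 held at least as many mature luminal peaks. Mature luminal peaks covered 18.1% of the window, the highest share of any type at the 4 loci, against 8.52% in luminal progenitors, 3.25% in basal cells and 5.48% in fMaSC. Every one of the 16 merged regions held a mature luminal peak, 8 of them alone, and 4 were shared by all 4 types. RefSeq annotates the protein-coding gene Ttc6 as overlapping Foxa1. The extent of that overlap was not examined, so peaks of the locus cannot be assigned to either gene.

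Sites with strong mature luminal peaks flanked Foxa1 on both sides. Upstream, chr12:58676662-58677749, 30.2 kb from the start, had a fold of 19.7 in mature luminal cells, and the luminal progenitor, basal and fMaSC peaks there had folds of 12.5, 6.04 and 14.2. Upstream again, chr12:58691805-58693625 had a mature luminal fold of 15.7 and a luminal progenitor fold of 6.65, with fMaSC folds of 4.05 and 5.06 and no basal peak. Downstream, the mature luminal UAR chr12:58612001-58613500 held a peak with a fold of 14.4, and luminal progenitors had one at 3.74. The other mature luminal UAR, chr12:58635701-58638800, lay 9.75 kb downstream of the start and held mature luminal peaks with folds of 11.0 and 5.98 and a luminal progenitor peak at 4.16. Among sites seen in mature luminal cells alone, chr12:58672645-58673700 led with a fold of 9.71, followed by chr12:58684562-58685197 at 7.97 and the peak in that UAR at 5.98.

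Gata3, the luminal fate factor gene, was accessible in every normal type. It had 21 mature luminal, 32 luminal progenitor, 20 basal and 21 fMaSC peaks, which was 4.39, 6.86, 3.21 and 3.38 times the density of each list over the genome, in that order. Of 12862 consecutive windows of 200 kb, 17 held at least as many luminal progenitor peaks and 267 at least as many mature luminal peaks. Of 40 merged regions, 12 held a luminal progenitor peak alone, 7 were shared by all types and 3 held a mature luminal peak alone. Those 3 were chr2:9726980-9727610 with a fold of 8.22, chr2:9761140-9761462 with 6.97 and chr2:9868590-9869008 with 4.48. A pair of broad merged regions around and upstream of the start, chr2:9799464-9807881 and chr2:9808520-9812184, held the strongest luminal progenitor, basal and fMaSC peaks of the window. Mature luminal folds there were 24.9 and 24.9, luminal progenitor 24.3 and 21.0, basal 23.9 and 20.9, and fMaSC 27.9 and 16.2. RefSeq annotates the long noncoding RNA genes 4930412O13Rik and 9230102O04Rik over Gata3, so these regions may belong to more than 1 transcript.

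Some far sites at Gata3 did differ between types, in called peaks or in rank within a list. The strongest mature luminal peak of the window was chr2:9847770-9848787, about 48.3 kb upstream of the start, with a fold of 28.1 and rank 1298 of 61584. Luminal progenitors had a peak there with a fold of 7.27 and fMaSC one with 4.05, basal cells had none, and the site was the single mature luminal UAR of the locus. Farther upstream, chr2:9884301-9885600 was a mature luminal URR. It held peaks of fMaSC (fold 16.5), basal cells (9.70) and luminal progenitors (5.61), and no mature luminal peak. The site chr2:9877392-9878056 had a fold of 15.4 in luminal progenitors, rank 7295 of 60030. Its mature luminal peak had 5.98, rank 44284 of 61584, and the site lay in no UAR or URR. Downstream, chr2:9756586-9757337 held peaks of all types, with a fold of 6.23 in mature luminal cells, 11.6 in luminal progenitors, 10.6 in basal cells and 22.3 in fMaSC. In that order these peaks ranked 42384 of 61584, 13498 of 60030, 29221 of 80294 and 5042 of 79910. This site too lay in no UAR or URR. The luminal progenitor UAR chr2:9741901-9743800 held 1 luminal progenitor peak, with a fold of 6.65, and ranked 237 of 306.

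**Figure D3:**
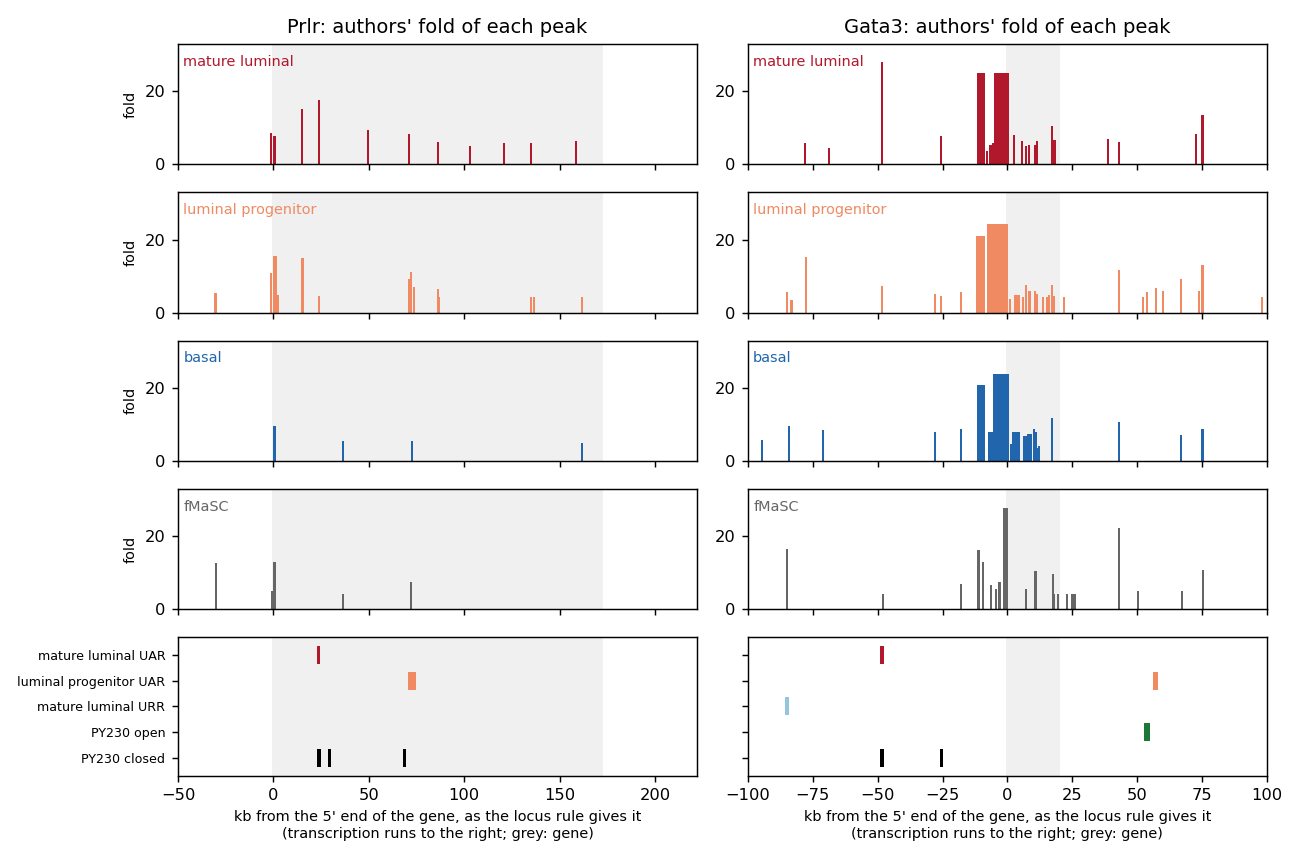
Maps of Prlr (left) and Gata3 (right), drawn as kb from the 5′ end against the authors' fold per peak, with the regions of the other lists in the bottom row. At Gata3 the mature luminal bar about 48.3 kb upstream, with a fold of 28.1, stands over a UAR and a closed region, and the URR farther upstream has bars in the lower 3 cell-type rows only.

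Over the 4 loci, regions seen in mature luminal cells alone made up 34.9% of 106 merged regions (37; 95% exact binomial interval 25.9 to 44.8%, counting error only), against 12.2% of all merged regions of the genome. Regions seen in both luminal types alone made up 11.3% (12), against 3.17%, and those of luminal progenitors alone 16.0% (17), against 4.76%. Regions shared by all 4 types made up 12.3% (13), against 21.7%. Of the 37 mature luminal regions, 22 came from Pgr and 8 from Foxa1. The peaks of these 37 were mostly weak, with a median fold of 5.23 and a highest of 11.0. The median was 6.48 for such peaks over the genome and 8.47 over the whole mature luminal list. Among the 17 luminal progenitor regions, 12 came from Gata3 and 5 from Prlr. Regions with neither luminal peak were 12.3% of the windows' regions, against 38.6% of the genome's.

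**Figure D4:**
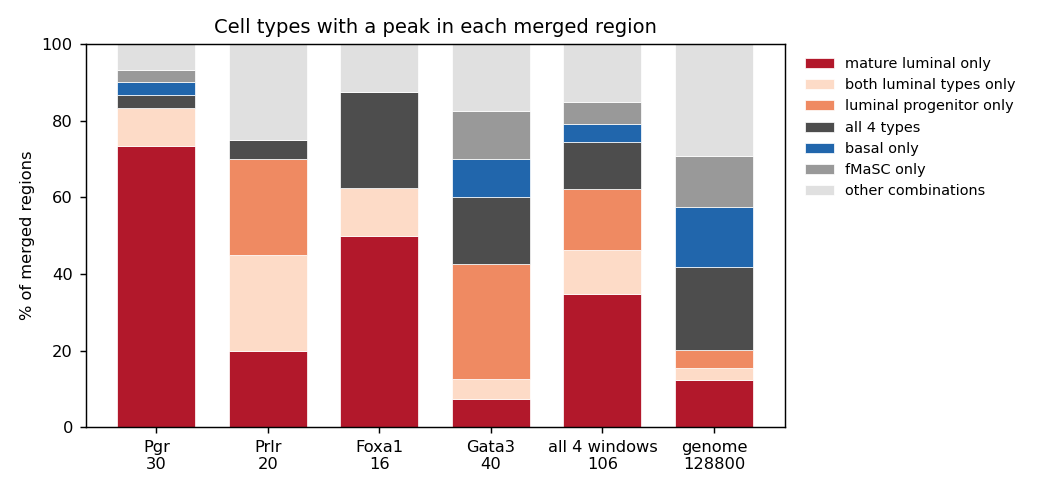
Share of merged regions (vertical axis, percent) by the cell types that have a peak in them, for each window, all windows and the genome, with the number of regions under each bar. Mature luminal regions take 73.3% at Pgr and 50.0% at Foxa1, against 12.2% in the genome, and luminal progenitor regions 30.0% at Gata3.

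UARs of the luminal types, but none of basal cells or fMaSC, lay in the windows. There were 8 mature luminal UARs (10.6 per Mb, against 1.27 per Mb in the genome), 2 luminal progenitor UARs (2.66 against 0.119 per Mb) and 1 mature luminal URR. No basal or fMaSC UAR or URR and no luminal progenitor URR overlapped a window. Over the genome, basal and fMaSC UARs numbered 2.00 and 0.475 per Mb, and each of these URR lists at most 0.0940 per Mb. At such densities few or none are expected in 752 kb. Of the 75 mature luminal peaks, 19 (25.3%, exact interval 16.0 to 36.7%) lay in a mature luminal UAR, against 6.12% of the list. This share rests on Pgr and was 10.4% (5 of 48) without it. For luminal progenitors, 4 of 62 peaks (6.45%) lay in a UAR of their own type, against 0.583% of the list, 3 of them at Prlr and 1 at Gata3.

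In luminal PY230 tumour cells, far more sites of these loci were closed than open where SOX10 was high. Closed and open are relative to SOX10-low cells, and the lists do not say whether a closed region was still accessible. SOX10 is a DNA-binding factor of the SOX family, known for its part in neural crest cells. The windows held 22 regions closed in SOX10-high cells, or 29.3 per Mb, against 5.87 per Mb in the genome, and 1 open region, or 1.33 per Mb, against 1.25. The closed regions were 11 at Foxa1, 6 at Pgr, 3 at Prlr and 2 at Gata3. Of the 22, 18 (81.8%, exact interval 59.7 to 94.8%) held a mature luminal peak of normal cells, close to the 83.1% of all closed regions, and 6 (27.3%) held a mature luminal UAR, against 18.4%. The other 4, of which 2 lay at Prlr and 2 at Foxa1, held no peak of any normal type. Seen from the normal cells, 24 of 75 mature luminal peaks (32.0%, exact interval 21.7 to 43.8%) lay in a closed region, against 21.6% of the list. The share was 68.8% (11 of 16) at Foxa1, 37.0% (10 of 27) at Pgr, 9.09% (1 of 11) at Prlr and 9.52% (2 of 21) at Gata3, so Prlr and Gata3 lay below the list and Foxa1 and Pgr above it. For luminal progenitor peaks it was 21.0% (13 of 62), against 8.41% of the list, with 5 of 5 at Pgr and 5 of 10 at Foxa1.

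The Pgr start itself lay in a region closed in SOX10-high cells relative to SOX10-low cells. The closed region chr9:8899201-8905200 was 6000 bp wide, ranked 452 of 15108 by the authors' score, and overlapped the start peaks of all 4 normal types. The start peaks of Prlr, Foxa1 and Gata3 overlapped no closed and no open region. The pair of sites beyond the Pgr 3′ end was closed too, with chr9:8971201-8973500 at rank 44 and chr9:8969801-8970900 at rank 250. The other closed regions of Pgr were chr9:8905601-8907100 at rank 2058, chr9:8964001-8965300 at rank 7218 and chr9:8997601-8998400 at rank 9558. At Foxa1 the highest score belonged to chr12:58635001-58638100, downstream of the gene, at rank 422, followed by chr12:58676501-58677900, upstream, at rank 806. The next were chr12:58684101-58685400 at rank 2641, chr12:58639601-58641300 at rank 4341 and chr12:58690401-58694000 at rank 5942. Scores of the other 6 ranked from 6184 to 13802.

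At Gata3 the closed regions were distal. They were chr2:9824901-9826100 at rank 1808 and chr2:9847701-9849000 at rank 3167, and the second overlapped the mature luminal UAR with the fold of 28.1. The single open region of the 4 loci, chr2:9745101-9747200, lay downstream of Gata3, held a luminal progenitor peak with a fold of 5.61 and no peak of another type, and ranked 2802 of 3208. It was the 1 open site among 62 luminal progenitor peaks (1.61%), against 2.89% of that list. At Prlr the mature luminal UAR was covered by the closed region chr15:10129601-10131800 at rank 3057, and the other 2, chr15:10135501-10137100 and chr15:10174901-10175700, ranked 12176 and 14082.

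Most mature luminal UARs at the loci overlapped a region closed in SOX10-high cells. Of 8, 5 (62.5%, exact interval 24.5 to 91.5%) did, against 83.1% of all mature luminal UARs. The interval covers counting error only and is no test against the list, since 4 of the 8 lie at Pgr. All of those at Foxa1 (2 of 2), Prlr (1 of 1) and Gata3 (1 of 1) did, and 1 of 4 at Pgr did. The 3 that did not were the wide Pgr regions of weak peaks, at chr9:8841901-8852000, chr9:8875401-8885500 and chr9:8933701-8939500. Mature luminal peaks that themselves overlapped both a UAR and a closed region had a median fold of 17.7 (7 peaks). Those that overlapped a UAR but no closed region had a median of 4.61 (12 peaks, all at Pgr). Over the whole list these medians were 15.2 (2983 peaks) and 12.2 (786 peaks), so the wide gap at the loci rests on the 3 Pgr UARs.

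**Figure D5:**
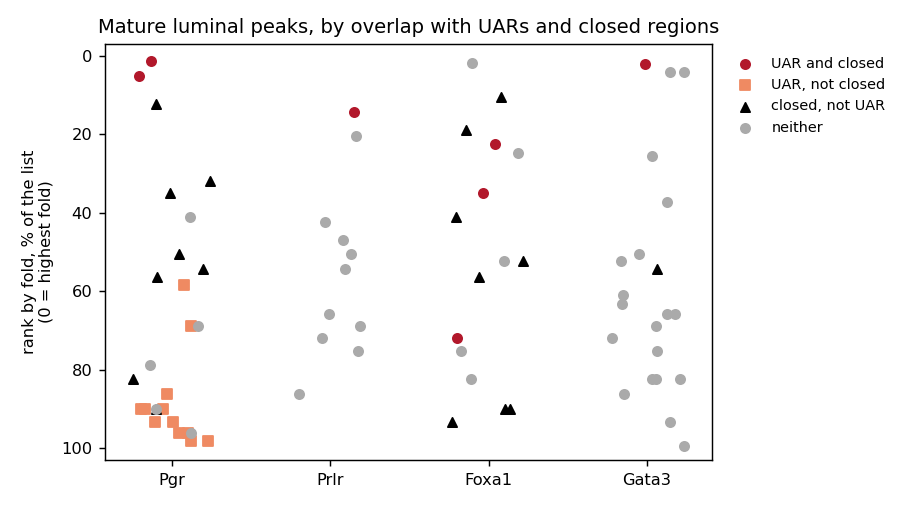
Each of the 75 mature luminal peaks of the 4 loci by its rank in the mature luminal list (vertical axis, percent of the list, with the highest fold at the top), marked by overlap with mature luminal UARs and with regions closed in SOX10-high cells. The 12 peaks in UARs that were not closed sit in the lower part at Pgr, while 7 peaks in closed UARs include the strongest of Pgr, Prlr and Gata3.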

How the data were processed

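ATAC-seq peaks of each normal type were called by the authors with the 2 samples pooled (q-value 0.001, per the list names), and each carries the authors' fold, a ratio to the caller's background. The 8 UAR and URR lists and 2 PY230 lists were deposited with a score of unstated scale. Tools in the submitters' processing notes, with no role or order, include MACS2 2.1.1 and SICER, bedtools 2.20.1, Bowtie 0.12.8, FastQC and SAMtools 1.3.1. The notes name mm9 as the build. The handling of duplicates, repeats and the transposase offset is not given in these sources. Folds and scores were used only to rank or describe entries within a list.

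Positions (mm9) count from 1, so lists on a 100 bp grid were shifted by 1 base, while peak coordinates stayed as deposited. Peaks on chrM were left out. Peaks sharing at least 1 bp were merged across types. Genome densities use the span from the first to the last peak of each chromosome, 2575 Mb in all. Intervals are exact (Clopper-Pearson, 95%) and cover counting error only. No sample can be left out of a pooled list, and peaks of 1 locus are not replicates, so no test was made.

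Described were the 4 genes and, in each window, the strongest and start peaks, up to 5 regions per list by score and up to 3 mature luminal sites by fold. Other sites were chosen after their values were seen, as was the comparison with consecutive windows. The members and lists were chosen with earlier results of these data known. A planned list of other hormone-sensing genes and a search for genes of like pattern needed an mm9 annotation and were not done. Python 3.11.15, numpy 2.4.6, pandas 2.3.3 and scipy 1.17.1 were used. Overlap, cover and merging were tested on simulated data in 20 simulations.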

Additional observations from a re-analysis of the deposited data

How the results depend on the processing

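Peak counts, cover and merged-region counts were recomputed with fewer weak peaks. With peaks at or above each list's median fold, the 4 windows held 22 mature luminal, 19 luminal progenitor, 17 basal and 15 fMaSC peaks, and with the 30015 strongest peaks of each list 22, 18, 6 and 13. Cover of the windows in the same order of types was 4.76%, 4.09%, 3.52% and 2.12% with the median rule, 4.76%, 4.03%, 2.11% and 2.04% with the strongest peaks, and 4.99%, 4.12%, 2.06% and 2.59% with every peak set to 500 bp. Windows widened by 50 kb on each side were covered to 6.76%, 5.85%, 3.92% and 2.89%, and windows trimmed by 20 kb to 10.8%, 8.56%, 5.64% and 4.12%. With the median rule 38 merged regions remained. Of these, 11 were in mature luminal cells alone, 4 in both luminal types only and 6 in all types. With the strongest peaks 33 remained, and the counts were 12, 3 and 5. The main setting had 37, 12 and 13 of 106. Genome shares under these rules were not computed. Without Pgr, the share of mature luminal peaks in a UAR was 10.4%. The other 26 alternatives of these results stayed within 1.5 times the count or within the interval of the share. The sign of mature luminal minus luminal progenitor counts, positive at Pgr and Foxa1 and negative at Prlr and Gata3, held in all 20 alternatives tried. The cause of these changes was not tested beyond what each alternative alters by construction. No paired analysis was possible because each list pools its samples, and for the same reason no replicate could be left out. Unknown depth limits every comparison of counts between lists.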

Other observations

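The wide Pgr UARs can be set beside others of their kind, a comparison made after the values were seen. Of 30 mature luminal UARs at least 5 kb wide, 16 (53.3%) overlapped a region closed in SOX10-high PY230 cells, against 2712 of the 3252 narrower ones (83.4%). Of 153 UARs whose strongest mature luminal peak was below the list's median fold, 89 (58.2%) were closed, against 84.3% of the other 3129. The 3 Pgr UARs that were not closed belong to both kinds. Over the list, 82.7% of the 1400 UARs with a luminal progenitor peak were closed, and 83.4% of the 1882 without one. At the 4 loci, 5 of 5 with one and 0 of 3 without one were closed.

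The windows also contain sites with no called peak in either luminal type. At Gata3, 9 of 40 merged regions (22.5%) had basal or fMaSC peaks alone, against 38.6% of the genome's merged regions. One at chr2:9870938-9871360 had a basal fold of 8.41. At Pgr, chr9:8953333-8953692 held a basal peak with a fold of 9.92 and an fMaSC peak with 8.10, inside a gene whose other sites were mostly mature luminal. At Prlr, the single such site was chr15:10143350-10144025, inside the gene, with a basal fold of 5.39 and an fMaSC fold of 4.30.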
